A study of Homo sapiens and Homo sapiens
Mus musculus and Mus musculus with 9 samples.

Results

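The genes described here are 10 genes of the Notch pathway: the receptors NOTCH1, NOTCH2 and NOTCH3, the ligands JAG1, JAG2 and DLL1, and the transcriptional targets HES1, HEY1, HEYL and NRARP. They were found by symbol in the deposited table, which lists 41713 genes, and all 10 had a row. Notch receptors span the membrane and are switched on by ligands on a touching cell. The bound receptor is cleaved, its intracellular part enters the nucleus, joins the DNA-binding protein RBPJ and turns on repressors of the HES and HEY families. In bone, Notch signaling is known for its part in the differentiation of osteoblasts and in the contact of tumor cells with them.

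The RNA-Seq compared 3 libraries of C4-2B, a line of human prostate cancer cells, grown alone with 3 libraries in which 1 part of C4-2B had been mixed and co-cultured with 30 parts of MC3T3-E1, a mouse pre-osteoblast line. The labels give the genotype of both lines as WT, and alpha-MEM with fetal bovine serum as the medium of all cells, whereas the methods of the study name RPMI-1640 for routine culture of C4-2B. The co-culture served the study as a model of prostate cancer cells that stop dividing next to osteoblasts, and the comparison asks how the transcripts of the Notch genes differ there. A further 3 libraries, of MC3T3-E1 alone, were not used here. The human reads were separated from the mouse reads with 3 pipelines (Xenome, XenofilteR and Kallisto), and the groups were compared with DESeq2 in each, so that every value below is of reads assigned to human genes. Nothing in the labels says that the 3 libraries of a group came from separate cultures, so the p-values measure only the spread between these libraries.

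The table gives 1 mean per gene over all 6 libraries and no value per library. The reads of each library were therefore solved from the mean, the fold change and its error with Xenome and XenofilteR, and are given divided by the library's size factor ("normalized reads"). The solved libraries are called a, b and c in the order of their depth, since they could not be matched to replicate numbers. With Xenome, the size factors were 5.93, 5.31 and 4.86 for C4-2B alone and 0.427, 0.145 and 0.109 for the co-culture, so the co-culture libraries were the shallower ones. Luminal markers of the prostate were checked first, and HOXB13, KRT8, KRT18 and EPCAM were present in every library, HOXB13 with 9828 to 11533 normalized reads in C4-2B alone and 10143 to 10767 in the co-culture. The summed level of 15 osteoblast markers was 1574 to 1664 in C4-2B alone and 3476, 10318 and 7458 in co-culture libraries a, b and c. COL1A1 was the most abundant of them, at 668 to 818 normalized reads in C4-2B alone and 2604, 9130 and 6319 in co-culture libraries a, b and c, POSTN had no read in C4-2B alone, and SP7, ALPL and LUM had no read in the co-culture. The list did not move as 1, since COL5A2 was at 340 to 366 normalized reads in C4-2B alone and 186 to 239 in the co-culture, and COL3A1 at 55.5 to 66.5 and 18.4 to 34.5 with Xenome, although the median log2 fold change of COL3A1 over the pipelines was 0.95.

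None of the 9 members that could be tested reached the study's threshold, which asks for a log2 fold change of 1 or more in either direction and an adjusted p below 0.05 from 2 or more pipelines. This threshold was met by 1.98% of 25298 genes. Without the fold minimum 1 member, NOTCH3, was called lower in the mixed co-culture, against 10.0% of all genes called in either direction, 5.24% higher and 4.78% lower. With p below 0.05 before adjustment in 2 or more pipelines, 2 members were higher (NOTCH2 and NRARP) and 3 were lower (NOTCH3, JAG1 and HEY1), against 21.3% of all genes in either direction. limma voom on the solved reads called 1 member, NOTCH3, against 5.12% of 13425 genes. The largest difference in size, that of HES1, was not called, and its libraries disagreed within both groups. In bulk libraries, fewer cells with a transcript and less of it per cell cannot be told apart.

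**Figure D1:**
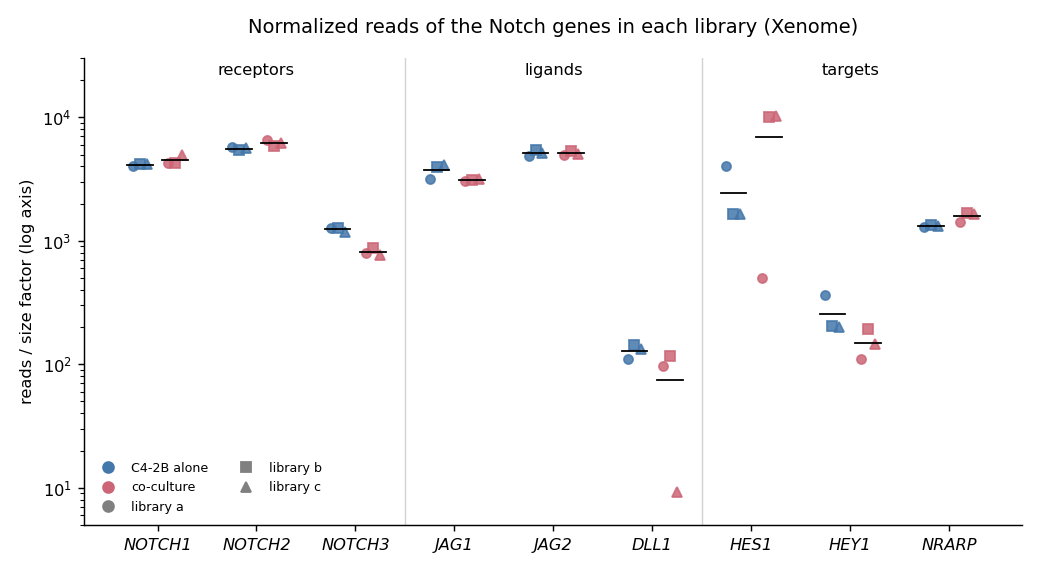
Normalized reads (Xenome reads divided by the size factor, log axis) of 9 Notch genes in each of 6 libraries, with circles, squares and triangles for libraries a, b and c and a black bar for the group mean. NOTCH3 lies lower in all 3 co-culture libraries, whereas HES1 lies at 499 in co-culture library a and at 10000 and 10277 in libraries b and c.

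HES1 and HEYL were the members with the core motif of RBPJ, TGGGAA, in the 250 bases before their start, among the 8 members matched by symbol in a table of promoters from RefSeq (GRCh38.p14). The motif was searched on both strands (TGGGAA or TTCCCA, which do not overlap in these windows). It occurs at least 1 time in 20.8% of 35116 promoter windows and at least 2 times in 2.9%. The sequences are shown because these 2 targets share the motif while HES1 was read in every library and HEYL was not detected, and the capitals mark the motif. The HES1 window is chr3:194135898-194136147 on the plus strand, with motifs starting at -84 and -70 from the start site. The HEYL window is chr1:39639644-39639893 on the minus strand, with motifs starting at -178 (as TTCCCA) and -99.
HES1: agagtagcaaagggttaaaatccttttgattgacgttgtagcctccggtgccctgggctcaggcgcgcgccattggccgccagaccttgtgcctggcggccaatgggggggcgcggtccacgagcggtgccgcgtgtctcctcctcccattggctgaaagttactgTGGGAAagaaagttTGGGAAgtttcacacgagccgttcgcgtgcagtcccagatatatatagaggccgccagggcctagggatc
HEYL: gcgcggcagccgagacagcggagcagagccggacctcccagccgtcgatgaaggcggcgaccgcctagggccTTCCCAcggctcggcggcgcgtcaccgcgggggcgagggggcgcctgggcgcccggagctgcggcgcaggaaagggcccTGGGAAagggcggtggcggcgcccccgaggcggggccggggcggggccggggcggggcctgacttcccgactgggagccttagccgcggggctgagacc
The windows of NOTCH1, NOTCH2, NOTCH3, JAG1, JAG2 and NRARP held no such letters. No window was found for DLL1 and HEY1, so the motif was not searched there. Each window ends at the start site of RefSeq, which for NOTCH2 and JAG2 lies inside the gene bounds of the deposited table. A match is a description of the sequence and not a bound site.

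Of the receptors, NOTCH3 was lower in the mixed co-culture. NOTCH3 (chromosome 19, 15159038 to 15200995, 33 exons in its canonical transcript) is a receptor best known from the smooth muscle of vessels, and had 7529, 6789 and 5727 reads in C4-2B alone and 343, 127 and 84 in the co-culture. Its normalized reads were 1270, 1278 and 1178 in C4-2B alone and 804, 877 and 771 in the co-culture. Every co-culture library was thus lower than every library of C4-2B alone, with a mean of 818 ± 54.1 against 1242 ± 55.5 (SD, n = 3), a ratio of 0.658. The log2 fold change was -0.60 (SE 0.10, adjusted p = 6.3e-08) with Xenome, -0.61 (SE 0.10, adjusted p = 4.0e-08) with XenofilteR and -0.49 (SE 0.15, adjusted p = 0.011) with Kallisto. This change was larger than in 93.1% of genes averaging 50 counts or more, although it stayed under the fold minimum.

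limma voom gave NOTCH3 a log2 fold change of -0.60 (SE 0.12, adjusted p = 0.016). With each library left out in turn the value stayed between -0.64 and -0.58, and the adjusted p was 0.2 without co-culture library a and 0.053 without co-culture library c. Without co-culture library a, 1.53% of all genes were called.

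NOTCH1 and NOTCH2 were slightly higher in the mixed co-culture and were not called. NOTCH1 (chromosome 9, 136494433 to 136546048) had 4027, 4198 and 4218 normalized reads in C4-2B alone and 4229, 4275 and 4987 in the co-culture. The groups did not overlap, but the co-culture libraries a and b lay within 1.03 times the mean of C4-2B alone and only library c stood above, at 1.20 times. With Xenome its log2 fold change was 0.11 (SE 0.08, adjusted p = 0.47), with a 95% interval from -0.05 to 0.26, and the other 2 pipelines gave 0.10.

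NOTCH2 (chromosome 1, 119911553 to 120100779) had 5714, 5422 and 5594 normalized reads in C4-2B alone and 6512, 5843 and 6181 in the co-culture. All 3 co-culture libraries were above the libraries of C4-2B alone, with a ratio of means of 1.11. Its log2 fold change of 0.15 (SE 0.07, Xenome) had an adjusted p of 0.12 with Xenome, 0.12 with XenofilteR and 0.088 with Kallisto. Of the distinct 31-base sequences of NOTCH2 transcripts, 11% also occur in transcripts of other human genes, first of all its partial copies NOTCH2NLC, NOTCH2NLA and NOTCH2NLB, so part of its reads could be assigned to either.

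**Figure D2:**
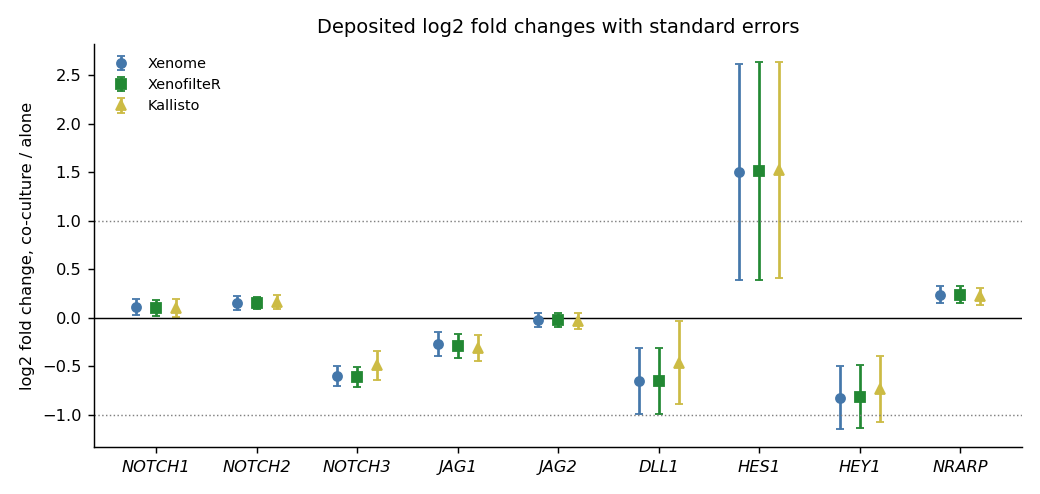
Log2 fold change of the mixed co-culture against C4-2B alone for 9 Notch genes with each of 3 pipelines, with bars of 1 standard error and dotted lines at the fold minimum. The pipelines lie within 0.20 of each other for every gene, and the error of HES1 (1.11 with Xenome) is the widest.

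Among the ligands, which are presented to the receptors of neighboring cells, JAG2 had the highest level per kilobase and did not pass the test. JAG2 (chromosome 14, 105140982 to 105168824) had 4908, 5446 and 5105 normalized reads in C4-2B alone and 4946, 5346 and 5033 in the co-culture, and the groups overlapped throughout. Its log2 fold change was -0.02 (SE 0.07, adjusted p = 0.94, Xenome), with a 95% interval from -0.16 to 0.13.

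JAG1 (chromosome 20, 10637684 to 10673999), the ligand mutated in Alagille syndrome, had 3142, 3989 and 4116 normalized reads in C4-2B alone and 3050, 3108 and 3187 in the co-culture. The co-culture libraries agreed within a factor of 1.04, and library a of C4-2B alone lay close to them while libraries b and c lay higher. JAG1 had a log2 fold change of -0.27 (SE 0.12, adjusted p = 0.14) with Xenome, -0.29 (adjusted p = 0.10) with XenofilteR and -0.31 (adjusted p = 0.081) with Kallisto. With limma voom JAG1 had an adjusted p of 0.28, and without library a of C4-2B alone a log2 fold change of -0.39 and an adjusted p of 0.0052. Leaving out that library raised the share of all genes called to 13.8%.

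DLL1 (chromosome 6, 170282206 to 170306565) had the lowest level per kilobase of the ligands among the members. It had 653, 756 and 652 reads in C4-2B alone and 41, 17 and 1 in the co-culture. Its normalized reads were 110, 142 and 134 in C4-2B alone and 96.1, 117 and 9.18 in the co-culture, so libraries a and b of the co-culture lay in or just under the range of C4-2B alone and library c lay far below. The 1 read of library c had a 95% Poisson interval of 0.0253 to 5.57 reads, where the mean of C4-2B alone would give 14 reads at this depth. The interval covers counting error only. The log2 fold change was -0.65 (SE 0.34, adjusted p = 0.23) with Xenome and -0.46 (SE 0.43, adjusted p = 0.56) with Kallisto. limma voom gave -0.95, and -0.28 without co-culture library c. Of the 31-base sequences of DLL1, 8.98% also occur in FAM120B, its neighbor.

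HES1, a repressor that is the best known direct target of Notch, had the largest difference in size and the largest disagreement between libraries. HES1 (chromosome 3, 194136148 to 194138732, 4 exons) had 24105, 8727 and 7949 reads in C4-2B alone and 213, 1448 and 1119 in the co-culture. Its normalized reads were 4068, 1642 and 1635 in C4-2B alone and 499, 10000 and 10277 in the co-culture. Co-culture library a was thus the lowest of all 6 libraries and libraries b and c were the highest, 20.6-fold apart, and library a of C4-2B alone was 2.49-fold above library c. Relative to the mean of C4-2B alone, the co-culture libraries stood at 0.204, 4.08 and 4.20.

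The log2 fold change of HES1 was 1.50 (SE 1.11, adjusted p = 0.47) with Xenome, 1.51 (SE 1.12, adjusted p = 0.46) with XenofilteR and 1.52 (SE 1.11, adjusted p = 0.42) with Kallisto. Of the 14147 genes with a mean of 50 counts or more, whose median SE was 0.116, 3 had a larger SE. An exact permutation test of the normalized reads gave p = 0.40 (two-sided, n = 3 per group, smallest possible p = 0.10). limma voom, which averages on the log scale, gave -0.17 (SE 0.84, adjusted p = 0.93). Without co-culture library a, limma voom gave 2.18 with an adjusted p of 0.042, and with any other library left out the value lay between -0.92 and 0.29.

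The spread of HES1 was compared with that of the 3736 other genes whose mean count was within a factor of 2 of its own. None of them had a larger ratio between its highest and lowest library than HES1 in C4-2B alone, where their median was 1.10, and none in the co-culture, where it was 1.13. The 213 reads of co-culture library a had a 95% Poisson interval of 435 to 571 normalized reads, far from the values of libraries b and c. The reads of XenofilteR were solved on their own and gave 23651, 8554 and 7807 reads for C4-2B alone and 207, 1415 and 1107 for the co-culture, so the order of the libraries did not depend on this choice of pipeline.

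The osteoblast markers and the sequence shared with mouse are given beside HES1. The summed osteoblast markers were higher in co-culture libraries b and c (10318 and 7458) than in library a (3476), as HES1 was. Most of this sum was COL1A1 (6319 to 9130 in libraries b and c, 2604 in library a). The other markers did not all follow this order. Of the 31-base sequences of HES1 transcripts, 7.24% also occur in mouse transcripts, more than in 97.2% of 19874 protein-coding genes, whose median was 0.502%. The part of either in the HES1 values was not tested. Among the other members, this share was 6.87% for DLL1, 4.92% for JAG1, 4.25% for NRARP and 3.69% for JAG2, and it was 0.744% for NOTCH1, 0.505% for NOTCH2, 0.415% for HEY1 and 0.308% for NOTCH3.

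HEY1 (chromosome 8, 79764010 to 79767857), a repressor of the HEY family that Notch turns on, had 2144, 1092 and 972 reads in C4-2B alone and 47, 28 and 16 in the co-culture. Its normalized reads were 362, 205 and 200 in C4-2B alone and 110, 193 and 147 in the co-culture. The groups did not overlap, but co-culture library b lay at 0.756 times the mean of C4-2B alone and its 95% Poisson interval, 128 to 279, took in libraries b and c of C4-2B alone. The log2 fold change was -0.82 (SE 0.32, adjusted p = 0.086) with Xenome, -0.81 (adjusted p = 0.088) with XenofilteR and -0.73 (adjusted p = 0.14) with Kallisto. In size the change with the median pipeline exceeded 96.4% of genes averaging 50 counts or more, and its SE with Xenome exceeded that of 94.7% of them. As for HES1, library a was the highest of the 3 libraries of C4-2B alone and the lowest of the 3 of the co-culture.

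NRARP (chromosome 9, 137299631 to 137302271, 1 exon), a target whose protein limits Notch signaling as feedback, had 1282, 1334 and 1306 normalized reads in C4-2B alone and 1421, 1671 and 1635 in the co-culture. All co-culture libraries were higher, with a mean of 1576 ± 135 against 1307 ± 26.2 (SD, n = 3), a ratio of 1.21. Its log2 fold change of 0.24 (SE 0.09) had an adjusted p of 0.056 with Xenome and 0.048 with XenofilteR, and the 0.22 of Kallisto had an adjusted p of 0.095. NRARP passed the test in 1 pipeline only, so it was not called. limma voom gave 0.22 with an adjusted p of 0.21.

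HEYL (chromosome 1, 39623435 to 39639643), a relative of HEY1, was not detected. Its row was empty with Xenome and XenofilteR, where the lowest mean of any listed gene was that of 2 reads, and its mean was 0 with Kallisto. No fold change was given for HEYL. Its promoter window printed above, with 2 copies of the motif, is therefore that of a gene with no level to compare.

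The groups did not overlap for 5 of the 9 members with solved reads, 3 higher (NOTCH1, NOTCH2 and NRARP) and 2 lower (NOTCH3 and HEY1) in the co-culture, against 33.4% of 13425 genes in either direction. For each of these 5 the exact permutation test reached p = 0.10, the smallest that 3 against 3 libraries allow. The reads solved with Xenome and XenofilteR differed by at most 2.82% in any library and member.

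Per kilobase of the canonical transcript, the order of the members was read within each group. In C4-2B alone, the mean normalized reads per kilobase were 1554 for HES1, 893 for JAG2, 631 for JAG1, 495 for NRARP, 488 for NOTCH2, 434 for NOTCH1, 143 for NOTCH3, 116 for HEY1 and 34.1 for DLL1. The ranges of NRARP and NOTCH2 overlapped, as did those of NOTCH3 and HEY1, and the other neighbors in this order did not overlap. In the co-culture, HES1 per kilobase ran from 317 to 6525 and so had no fixed place, JAG2 was at 885, and NRARP (597), NOTCH2 (541), JAG1 (524) and NOTCH1 (470) each overlapped with the next. NOTCH3, at 94.2, HEY1, at 68.4, and DLL1, at 19.6, closed the order without overlap. By the mean, JAG2 was the ligand and NOTCH2 the receptor with the highest level per kilobase in both groups.

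**Figure D3:**
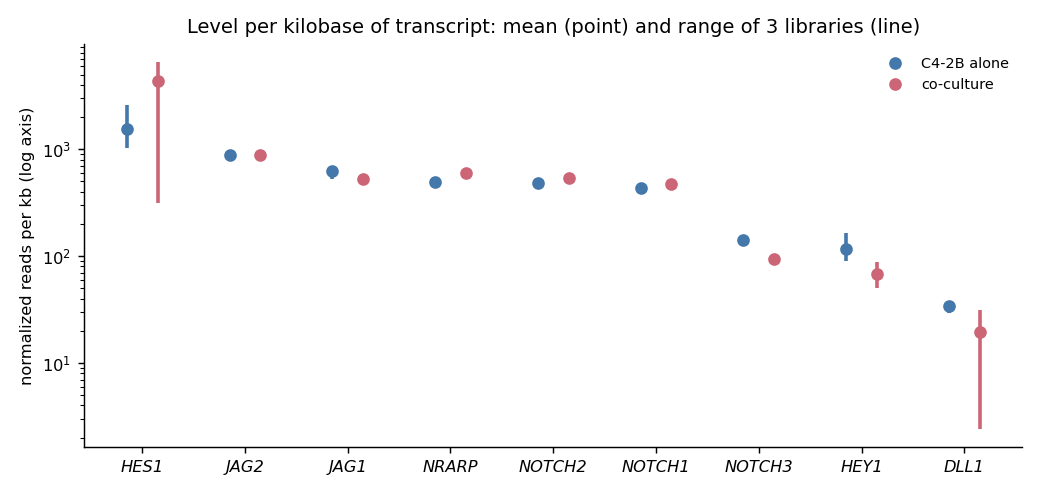
Normalized Xenome reads per kilobase of canonical transcript (log axis) of 9 Notch genes, with the mean of 3 libraries as a point and their range as a line, in the order of the level in C4-2B alone. HES1 spans from 317 to 6525 in the co-culture, and NOTCH3 moves from 143 without to 94.2 with osteoblasts.

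A list of 57 further genes of the pathway, of which 52 could be tested, had a median log2 fold change of 0.01, against 0.00 over all 25298 genes tested, and 27 of its genes lay above 0 and 25 below. By the rule of an adjusted p below 0.05 from 2 or more pipelines, 4 were higher (TLE4, HES6, CTBP2 and SNW1) and 3 were lower (TLE2, FURIN and MIB2) in the co-culture, 7 of 52 against the 10.0% of all genes. With the fold minimum only TLE4 was called. None of the 5 tested receptors and ligands of the list, the 5 glycosyltransferases or the 8 inhibitors and turnover factors was called by 2 or more pipelines. With Kallisto only, further genes of the list had an adjusted p below 0.05, among them ADAM17, DTX3, MAML2 and SPEN, which were higher, and ADAM10 and NUMBL, which were lower. With Kallisto on its own 3 genes of the list met the fold minimum and the adjusted p, against 2.09% of all genes. Besides TLE4 they were MAML2, a coactivator of the nuclear complex, and DTX3, of the Deltex family, both named after their values were seen. MAML2 had a log2 fold change of 2.61 (adjusted p = 1.8e-20) with Kallisto and -0.47 (adjusted p = 0.29) with Xenome. DTX3 had 4.97 (adjusted p = 4.0e-33) with Kallisto and 0.42 (adjusted p = 0.75) with Xenome.

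The calls among the corepressors, proteins that HES and HEY factors or RBPJ recruit to silence genes, went both ways. TLE4, of the Groucho family, had 145, 88 and 71 reads in C4-2B alone and 28, 8 and 6 in the co-culture. Its normalized reads were 24.5, 16.6 and 14.6 in C4-2B alone and 65.6, 55.3 and 55.1 in the co-culture, without overlap. TLE4 had a log2 fold change of 1.70 (SE 0.39, adjusted p = 0.00034) with Xenome and 2.16 (SE 0.56, adjusted p = 0.0017) with Kallisto. Its relative TLE2 had a log2 fold change of -0.84 (SE 0.27, adjusted p = 0.023) with Xenome but -0.19 (SE 0.65, adjusted p = 0.9) with Kallisto, and its co-culture libraries held 31, 4 and 13 reads. CTBP2, at 0.23, was a small change, and the other 9 corepressors were not called by 2 or more pipelines.

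In the cleavage group, FURIN, the protease that cuts the Notch precursor into its mature form, was lower, with a log2 fold change of -0.76 (SE 0.10, adjusted p = 1.3e-12, Xenome). FURIN had 2020, 2068 and 1957 normalized reads in C4-2B alone and 1074, 1271 and 1313 in the co-culture. The other 8 genes of this group, among them ADAM10 and ADAM17, were not called by 2 or more pipelines. MIB2, a ubiquitin ligase that acts on the ligands, was lower at -0.31, and SNW1, a cofactor of the nuclear complex, was higher at 0.19.

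HES6, a family member known to oppose HES1, was higher in all 3 pipelines, with a log2 fold change of 0.63 (SE 0.16, adjusted p = 0.0015) with Xenome. HES6 had 872, 1082 and 895 normalized reads in C4-2B alone and 1186, 1720 and 1570 in the co-culture, and the groups did not overlap. The median over the pipelines was -0.20 for HES4 and 0.09 for RBPJ, and neither was called. NOTCH4 was low, with 22.6 to 27.8 normalized reads in C4-2B alone and 18.4 to 35.2 in the co-culture, and its median log2 fold change of 0.24 was not called. DLL3, a ligand that acts inside its own cell, was at 0.18 and DLL4 at 1.27, the latter on 45 reads over the libraries of C4-2B alone and 4 over those of the co-culture, and neither passed the test. HEY2 had 4 reads over the libraries of C4-2B alone and none over those of the co-culture, and had no adjusted p. At the depth of co-culture libraries a, b and c, the mean of C4-2B alone would give 0.104, 0.0354 and 0.0266 reads. The absence of HEY2 reads there therefore cannot show a difference.

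**Figure D4:**
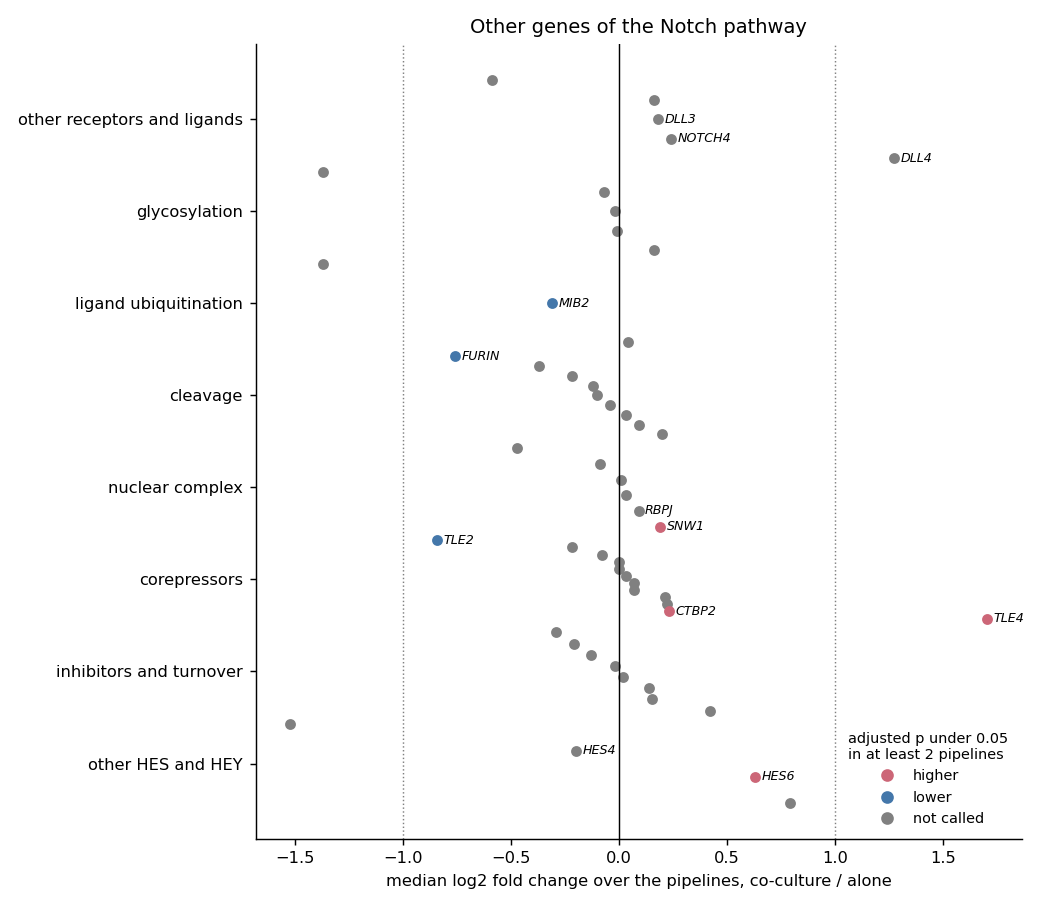
Median log2 fold change over the pipelines (x axis, co-culture against C4-2B alone) of 52 tested genes of the Notch pathway by group, colored by whether the adjusted p was below 0.05 with 2 or more pipelines, with dotted lines at the fold minimum. TLE4 (1.70) is the only called gene past a dotted line, and 4 called genes lie above 0 and 3 below.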

How the data were processed

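The members and gene lists were chosen with earlier results of these data known. The authors sequenced stranded mRNA libraries and separated human from mouse reads in 3 ways. Xenome kept human reads before HISAT2 aligned them to GRCh38, XenofilteR removed mouse reads after HISAT2 alignments to GRCh38 and GRCm38, and featureCounts counted both. Kallisto used an index of both species. The authors tested co-culture against C4-2B alone with DESeq2 after each. The columns the authors deposited for each pipeline are a mean of size-factor-normalized counts over all 6 libraries, a log2 fold change (co-culture over C4-2B alone) and its standard error in log2 units, the Wald statistic (a score), and a p-value with its Benjamini-Hochberg adjusted value. Those comparison columns are used here, because the table has no column per library. 21 of 41734 rows that repeat a gene were dropped.

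Reads per library were recovered as follows. The low means gave the weight of 1 read in every library, and all 20014 means below 10 with Xenome and all 19873 with XenofilteR were sums of whole reads in 1 way. For higher means, whole reads were searched that gave the mean and, in a negative binomial fit with the dispersion set by the deposited SE, the deposited fold change to within 1e-13. This placed each library in its group and solved 13425 of 13426 genes with a Xenome mean from 50 to 10000. Kallisto means were not such sums (555 of 3805) and were not solved. The solved reads are reconstructions from the deposited means, not a count table. They were tested with limma voom (limma 3.58.1, R 4.3.3), chosen after the data were seen, and with exact permutation tests. Recovery and voom were also run on simulated data, and no result of those runs is given here.

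The named genes were all members, the genes of the pathway list that 2 or more pipelines gave an adjusted p below 0.05 (at most 15), and NOTCH4, DLL3, DLL4, HES4, HES6, HEY2 and RBPJ. Shared sequence is the percent of a gene's distinct 31-base sequences (GENCODE release 44) found on either strand of mouse transcripts (release M21). Alternatives were each pipeline on its own, all 3, no fold minimum, no filter on low counts, protein-coding genes only, centering, ratios of means and leaving out each library. 2 genes of the lists are not reported here.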

Additional observations from a re-analysis of the deposited data

How the results depend on the processing

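The count of called members was 0 with each pipeline on its own, with all 3, with no filter on low counts and with protein-coding genes only, and 1 with no fold minimum. limma voom without a fold minimum called 1 member, and 0 to 2 with each library left out in turn. The list of further pathway genes had 1 call, 3 with Kallisto on its own (TLE4, MAML2 and DTX3) and 7 with no fold minimum. HES1 reversed to -0.17 with limma voom, and the values with 1 library left out ran from -0.92 to 2.18. JAG2 ran from -0.06 to 0.02 and changed sign without library b of C4-2B alone or library a of the co-culture. These settings moved no other member across 0. NOTCH3 ran from -0.64 to -0.58 with 1 library left out and was -0.49 with Kallisto on its own. Its adjusted p with limma voom was 0.2 without co-culture library a and 0.053 without co-culture library c. JAG1 ran from -0.39 (library a of C4-2B alone left out) to -0.19, DLL1 from -1.53 to -0.28 and HEY1 from -1.02 to -0.51. NRARP passed with XenofilteR on its own (0.24, adjusted p = 0.048). The cause of these differences was not tested. The median log2 fold change of all genes was 0.00271 with Xenome. Centering was applied only to the fold changes of the members, changed none in sign, and was not run on the calls. No paired analysis was possible because the solved libraries carry no replicate number. DLL1 and HEY1 had 59 and 91 reads over all 3 co-culture libraries, and the part of depth in their spread was not tested.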

Other observations

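The pattern of HES1 across the libraries was looked for in all genes after its values were seen. Of 13425 genes with a Xenome mean count from 50 to 10000, 11 (0.0819%) had more than 4 times the normalized reads of co-culture library a in both co-culture libraries b and c. Besides HES1 they were ADRA2A, ANKRD1, ARHGEF3, CYP1A1, INHBA, PPFIA4, SDK2, TFF1 and the pseudogenes RPL10P1 and SAR1AP1. INHBA, a subunit of activin, had 199, 939 and 836 normalized reads in the co-culture libraries and 335 to 894 in C4-2B alone. CYP1A1, the enzyme that the aryl hydrocarbon receptor turns on, had 4.69, 27.6 and 27.6 in the co-culture and 176 to 218 in C4-2B alone. The co-culture values of CYP1A1 rest on 2, 4 and 3 reads and those of ANKRD1 on 1, 2 and 3, which leaves their ratios with a wide counting error. TFF1, a secreted protein of epithelia, had 21.1, 152 and 147 in the co-culture and 26.5 to 70.8 in C4-2B alone. RPL10P1 and SAR1AP1 had at most 1.65 normalized reads in C4-2B alone and between 32.8 and 173 in the co-culture.

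In C4-2B alone, 12 genes (0.0894%) had more than 1.8 times the normalized reads of libraries b and c in library a. HES1 and RPL10P1 (1.18 against 0.565 and 0.411, on 7, 3 and 2 reads) were in both sets. HEY1 came just under, with 362 against 205 and 200 normalized reads, and JAG1 had the opposite order, with its lowest value in library a. These are descriptions of genes chosen for their values, and no test was made on them.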
